A study of Caenorhabditis elegans with 16 samples.

Results

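Homeobox genes encode transcription factors that bind DNA through a conserved homeodomain. The set described here holds every gene of the deposited table whose symbol begins with ceh-, the prefix for Caenorhabditis elegans homeobox genes, together with the named genes lin-39, mab-5, egl-5, php-3, nob-1, pal-1 and vab-7. The rule gave 72 of the 46726 genes in the table, of which 71 are annotated as protein coding and ceh-85 as a pseudogene. It leaves out homeobox genes with other names, 31 of which are set beside the members at the end.

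Hox genes give cells along the head-to-tail axis their regional identity, and in C. elegans they do so for muscle, epidermal and neuronal lineages of the embryo. PAL-1, the Caudal protein of the worm, acts before most of them: its maternal mRNA is held silent in the anterior blastomeres of the young embryo by RNA-binding proteins such as MEX-3, and the protein specifies the posterior C and D lineages. Many other homeobox genes act later, as selectors that fix the identity of single neuron classes, pharyngeal cells or muscles.

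RNA was sequenced from mixed-stage embryos released by bleaching from gravid adults, with 4 libraries for each of 4 genotypes. These were the wild type (WT, strain N2), edc-3(ok1427) (RB1311), edc-4(qe49) (FD135) and the edc-3(ok1427); edc-4(qe49) double mutant (FD146 in the sample labels), each represented by a single strain. EDC-3 and EDC-4 are proteins that assist removal of the 5′ cap from mRNA. The labels call the libraries independent biological replicates and number them 2 to 5 in each genotype. Those numbers were not used to pair the samples in the main tests.

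Library totals lay between 34.1 and 52.9 M counts, with a median of 44.0 M. The targeted genes were checked first: edc-4 stood at 168 ± 20.5 counts per 1000000 library counts (CPM, mean ± SD, n = 4) in WT and 176 ± 22.8 in edc-3, against 31.9 ± 2.62 for the edc-4 strain and 26.1 ± 4.36 for the double mutant. The edc-3 transcript fell less, from 85.4 ± 11.5 CPM in WT to 62.3 ± 5.55 in edc-3 and 72.8 ± 7.49 for the double mutant, and its count checks that label only weakly. Transcripts of adult tissue were close to 0: the 6 vitellogenin genes together gave 0.989 to 2.74 CPM and the 28 major sperm protein genes 0.467 to 1.62 CPM, and 8 of the latter had no count in any library. All levels are CPM scaled by TMM, a method that sets the effective library size from the bulk of the genes, and a level per kb divides CPM by the summed exon length. Levels are compared between genes only per kb.

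Marker transcripts of embryo stage differed between libraries. An embryo age index was computed for each library as the mean log2 CPM of 33 muscle genes, which come on late in embryogenesis, minus that of 36 early zygotic genes, which are transcribed in young embryos, and scaled to an SD of 1 over the 16 libraries. No list that enters the index holds a member, and the age of the embryos themselves was not measured. In WT the index was 0.58, -0.42, 1.52 and 0.68 in replicates 2 to 5. It was 0.47, -0.12, -0.83 and 0.61 in edc-3. For edc-4 it was 1.26, 0.54, -1.88 and -0.33, and for the double mutant -0.33, 0.27, -2.16 and 0.16. The WT mean of 0.59 ± 0.80 (SD, n = 4) was the highest of the 4 genotypes and the double mutant mean of -0.52 ± 1.13 the lowest, and replicate 4 was the highest library of WT and the lowest of each mutant. The summed CPM of the 33 muscle genes ran from 4851 in double mutant replicate 4 to 10303 in edc-4 replicate 2. A different mix of stages and an effect of the mutations on these marker transcripts cannot be told apart here. A fit with the index as a covariate can therefore also take out part of a genotype effect.

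The members were expressed over a wide range. Of the 72, 65 passed the filter on low counts and were tested, among 16880 genes in all. The 7 that did not pass were ceh-12, ceh-75, ceh-81, ceh-82, ceh-84, ceh-85 and ceh-87, with 1 to 67 reads each summed over all 16 libraries. The single ceh-85 read came from double mutant replicate 5. In WT, 36 tested members had a mean of at least 10 CPM, 56 had at least 1 CPM, and 9 lay under 1 CPM. Those 9 were ceh-1, ceh-7, ceh-9, ceh-23, ceh-28, ceh-33, ceh-54, ceh-63 and ceh-90. All members together took 1987 to 2396 CPM of a library, and 68 to 71 of them had at least 1 read in each library.

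The highest levels per kb in WT belonged to ceh-43, the worm Distal-less gene, at 147.0 ± 1.45 CPM per kb, and to ceh-20, a PBX-type partner of Hox proteins, at 143 ± 17.1 CPM per kb (SD, n = 4). Their ranges overlapped, so their order was not settled by the 4 libraries. Next came ceh-32, a sine oculis-class gene that acts in the head, at 86.0 ± 6.14 CPM per kb, then ceh-13, the labial-type Hox gene, at 64.3 ± 2.56. They were followed by ceh-38, a ONECUT gene, at 55.9 ± 7.14, and pal-1 at 54.3 ± 7.59 CPM per kb, which did not differ from each other beyond their spread. The rest of the first 10 were ceh-44 at 43.7 ± 3.35, ceh-39 at 38.4 ± 9.36, ceh-58 at 36.4 ± 3.21 and ceh-34 at 35.9 ± 5.78 CPM per kb. These 10 genes held 55.0% of the summed WT level per kb of all members, and the lowest tested member, ceh-23, stood at 0.185 CPM per kb. In the other classes the highest members in WT were ceh-37, an Otx-type gene, at 28.4 ± 2.80 CPM per kb, ceh-6, a POU gene of the excretory cell and of neurons, at 11.8 ± 2.198, and ceh-14, a LIM homeobox gene of the Lhx3/4 type, at 2.04 ± 0.392.

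**Figure D1:**
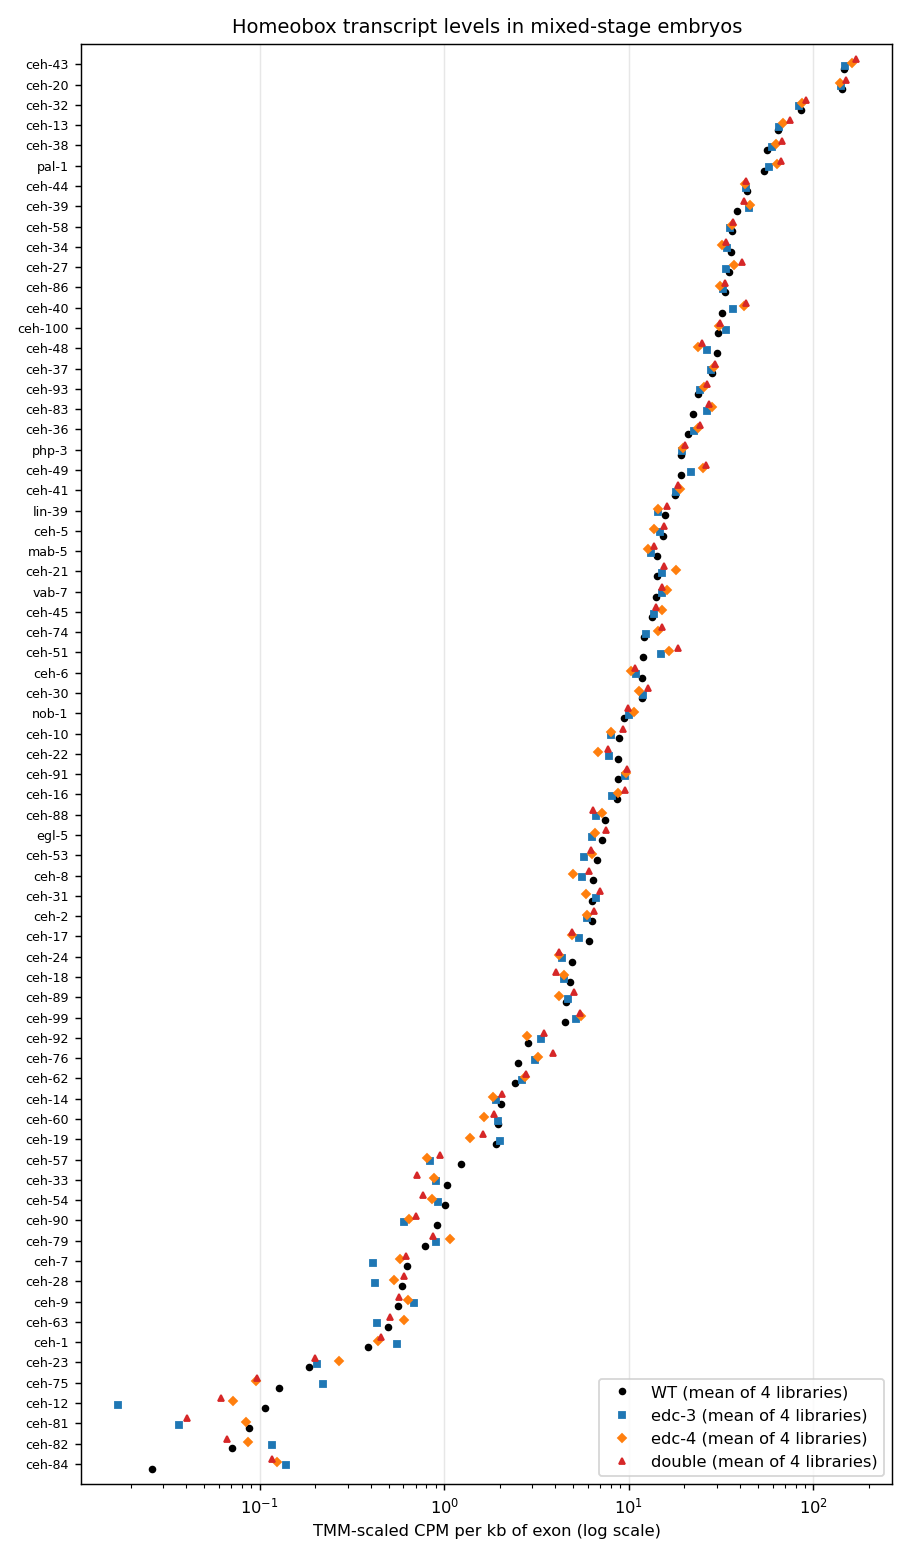
Level of each homeobox gene as TMM-scaled CPM per kb of exon (log axis), with a point for the mean of 4 libraries in each genotype; the members without any WT read, ceh-85 and ceh-87, are not drawn. The genes span from over 100 CPM per kb (ceh-43, ceh-20) to under 0.1, and the 4 genotype means of a gene lie close together down to about 1 CPM per kb.

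Members lie on all chromosomes: 8 on I, 14 on II, 16 on III, 4 on IV, 12 on V and 18 on X. The exons of 18 members overlap an exon of another annotated gene, 4 on the same strand (ceh-8, ceh-27, ceh-63 and ceh-88) and 14 only on the other strand, among them ceh-20, ceh-32, ceh-34, ceh-38, ceh-40 and pal-1. The strand setting of the counting is not given in the sources used here, so reads of such a pair may not have been told apart. The identifier of the ceh-44 entry is now named cone-1 in the Ensembl annotation, while RefSeq lists ceh-44 and cone-1 as overlapping genes, and the count cannot be divided between them.

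The Hox genes lie on chromosome III of WBcel235 in 3 groups. The first pair is lin-39 at chrIII:7528641-7536632 and ceh-13 at chrIII:7555660-7558041, with a gap of 19.0 kb. The second is mab-5 at chrIII:7776835-7783454 and egl-5 at chrIII:7814374-7817141, 30.9 kb apart. The third, php-3 at chrIII:12074218-12077556 and nob-1 at chrIII:12077793-12084316, has a gap of only 0.24 kb. The genes pal-1 (chrIII:4804688-4809576) and vab-7 (chrIII:10920344-10926041) lie on the same chromosome outside these groups. Adjacent genes had unequal levels. The level of ceh-13 in WT, 64.3 ± 2.56 CPM per kb, stood beside 15.7 ± 1.65 for lin-39, 14.2 ± 3.23 for mab-5, 7.15 ± 0.969 for egl-5, 19.2 ± 1.71 for php-3 and 9.47 ± 0.490 for nob-1. The php-3 level per kb was 1.71 to 2.24 times that of nob-1 in the 16 libraries, and the mab-5 level was 1.64 to 2.46 times that of egl-5. Among the other close pairs, ceh-58 stood 20.8 to 72.3 times above its neighbour ceh-57, 0.45 kb away, and ceh-34 stood 25.0 to 83.6 times above ceh-33, 3.62 kb away. The Bar-type pair ceh-30 and ceh-31 stayed within a ratio of 1.56 to 2.14.

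Whether loss of either decapping factor, or of both, altered homeobox transcripts was examined in each mutant against WT. No member passed an adjusted p of 0.05 in any mutant (edgeR quasi-likelihood test, Benjamini-Hochberg adjustment over all 16880 genes). Of all tested genes, 0.142% passed in edc-3, another 0.142% did so in edc-4, and for the double mutant the share was 0.207%. DESeq2 called 0 members in each of the 3 as well, and its share over all genes is not given here. At shares this small, 0 of 65 members lies near the background, and nothing particular to homeobox genes is read from it. At an unadjusted p under 0.05 there were 0 of 65 members in edc-3, against 2.65% of all genes, then 5 (7.69%) in edc-4, against 4.98%, and 3 (4.62%) in the double mutant, against 11.5%. The median log2 fold change of the members was 0.00 in edc-3, -0.00 for edc-4 and 0.06 for the double mutant, beside -0.00, 0.00 and -0.01 over all tested genes. The 3 comparisons share the 4 WT libraries and are not independent of each other.

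The intervals set a limit on changes that could have gone undetected. Among the 56 members with a median of at least 1 CPM over the libraries, the 95% interval of the log2 fold change lay wholly between -1 and 1 for 54 genes with the edc-3 mutant, 52 with edc-4 and 53 with both alleles. The median distance from the estimate to the interval's end was 0.33 in log2 units. In a bulk sample, fewer cells that express a gene and less RNA of it per cell cannot be told apart.

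Among the Hox genes, ceh-13 acts in the anterior and is needed for embryonic morphogenesis. In replicates 2 to 5, in that order here and for every later gene, its level was 57.1, 61.6, 57.3 and 60.8 CPM in WT, 55.4, 61.0, 66.1 and 57.7 with edc-3, 50.96, 59.3, 81.4 and 61.4 with edc-4, and 65.3, 62.1, 85.5 and 61.1 with both alleles. Replicate 4 was the highest library in all 3 mutants, the other mutant libraries lay between 50.96 and 65.3 CPM, and each mutant overlapped WT. The log2 fold change of the double mutant was 0.21 ± 0.13 (SE, 95% interval -0.07 to 0.49, edgeR adjusted p = 0.503). The replicates numbered 4 were also those of the lowest age index in each mutant, and with the index as a covariate the fold change was 0.00.

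lin-39, which specifies the mid-body and guides vulval fates and neuroblast migration, gave 19.8, 19.9, 23.5 and 24.1 CPM in WT, 20.6, 20.7, 17.1 and 21.4 with edc-3, 22.2, 23.6, 16.7 and 17.5 with edc-4, and 23.6, 23.4, 19.2 and 22.4 with both alleles. The lowest library of each mutant was replicate 4, and all groups overlapped. mab-5, which acts in the posterior body and in the migration of the Q neuroblast descendants, gave 12.3, 12.9, 19.6 and 17.6 CPM in WT, 13.6, 13.7, 13.1 and 17.5 with edc-3, 14.6, 15.3, 12.2 and 14.1 with edc-4, and 14.9, 16.1, 14.7 and 14.6 with both alleles. The WT libraries fell into a low and a high pair that enclosed nearly all mutant values. egl-5, an Abdominal-B-type gene of the tail, gave 9.65, 10.5, 11.6 and 13.1 CPM in WT, 10.7, 9.16, 8.96 and 10.8 with edc-3, 12.7, 12.2, 7.06 and 9.46 with edc-4, and 12.2, 12.9, 10.3 and 11.8 with both alleles. Its lowest value of all 16 was edc-4 replicate 4. The log2 fold changes of these 3 genes in the mutants lay between -0.18 and 0.07, with edgeR adjusted p-values of 0.840 to 1.0.

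The adjacent posterior-group genes are close paralogs. php-3 gave 22.3, 23.5, 24.4 and 27.4 CPM in WT, 24.1, 25.6, 25.4 and 23.6 with edc-3, 23.5, 24.9, 26.1 and 25.0 with edc-4, and 25.3, 24.4, 28.4 and 23.7 with both alleles, and its log2 fold changes were 0.02 to 0.06 ± 0.10 (SE). nob-1, whose loss disrupts the posterior of the embryo, gave 20.9, 20.8, 18.8 and 20.98 CPM in WT, 22.3, 23.1, 22.7 and 18.6 with edc-3, 20.8, 21.9, 25.8 and 23.7 with edc-4, and 20.2, 23.0, 24.1 and 17.9 with both alleles. Every mutant overlapped WT, and the fold change furthest from 0 was 0.18 ± 0.12 in edc-4 (edgeR adjusted p = 0.831).

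pal-1 is the member whose maternal mRNA is a classical target of translational repression in early embryos. It gave 84.6, 93.9, 68.5 and 74.2 CPM in WT, 76.6, 82.4, 103 and 75.8 with edc-3, 71.3, 79.2, 131 and 93.5 with edc-4, and 93.0, 78.0, 128 and 95.4 with both alleles. The highest library of each mutant was replicate 4, WT replicate 4 was the lowest of all, and the groups overlapped. The log2 fold change was 0.07 ± 0.18 for edc-3, 0.22 ± 0.18 for edc-4 and 0.30 ± 0.18 for the double mutant (SE, edgeR adjusted p = 1.0, 0.831 and 0.490). In the double mutant it was -0.01 with the index as a covariate and 0.07 without the 4 libraries numbered 4. vab-7, the even-skipped gene of the posterior body and of DB motor neurons, gave 10.3, 11.3, 13.1 and 11.1 CPM in WT, 11.5, 9.68, 14.6 and 13.6 with edc-3, 11.4, 11.2, 16.3 and 13.5 with edc-4, and 12.7, 10.8, 15.6 and 10.3 with both alleles. Replicate 4 was its highest library in every genotype, WT included.

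**Figure D2:**
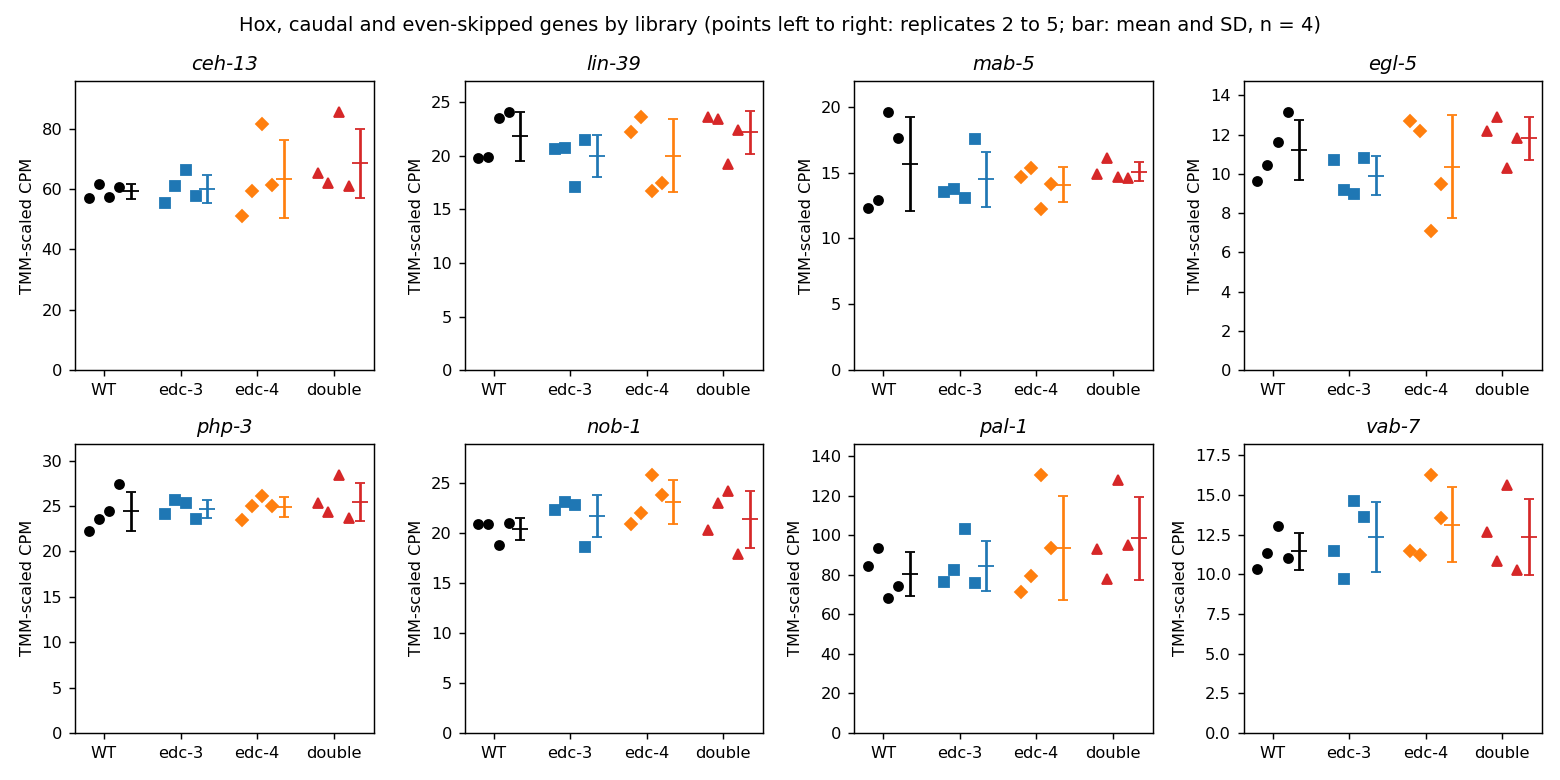
TMM-scaled CPM of the 6 Hox genes, pal-1 and vab-7 in each of the 16 libraries, in replicate order 2 to 5 within a genotype, with the mean and SD (n = 4) beside the points. All mutant groups overlap WT, and replicate 4 of edc-4 and of the double mutant stands highest for ceh-13 (81.4 and 85.5 CPM) and pal-1 (131 and 128 CPM).

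The members furthest above and below WT are given next, and none passed the adjusted threshold. ceh-51, a gene of the MS mesoderm lineage that acts with tbx-35, had the highest log2 fold change among members of at least 1 CPM in each mutant. It gave 10.01, 10.9, 6.55 and 9.64 CPM in WT, 10.05, 11.7, 16.3 and 8.65 with edc-3, 7.65, 10.9, 22.3 and 10.8 with edc-4, and 12.9, 12.1, 20.9 and 11.8 with both alleles. All 4 double mutant libraries lay above all 4 WT libraries, whereas both single mutants overlapped WT. The log2 fold change was 0.63 ± 0.29 in the double mutant (SE, 95% interval 0.03 to 1.24, edgeR adjusted p = 0.423). It was 0.40 without double mutant replicate 4, 0.26 without all libraries numbered 4 and 0.14 with the index as a covariate. In edc-4 it was 0.47 ± 0.29, 0.08 without edc-4 replicate 4 and -0.05 without all libraries numbered 4.

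The next members on the high side were ceh-76, the PBX-type gene ceh-40 and the ONECUT gene ceh-49. ceh-76 gave 1.88, 2.39, 1.66 and 1.67 CPM in WT, 1.55, 2.17, 3.30 and 2.37 with edc-3, 1.28, 1.18, 4.37 and 2.82 with edc-4, and 2.82, 1.96, 4.45 and 2.47 with both alleles. ceh-40 gave 40.96, 42.1, 25.5 and 42.9 CPM in WT, 35.7, 48.4, 50.6 and 38.1 with edc-3, 31.8, 41.9, 73.9 and 50.6 with edc-4, and 45.7, 42.2, 72.9 and 43.9 with both alleles. Both had their highest value of each mutant in replicate 4 and overlapped WT in every mutant. ceh-49 gave 23.96, 29.9, 13.1 and 19.2 CPM in WT, 19.9, 25.8, 31.8 and 20.3 with edc-3, 18.8, 22.2, 46.0 and 26.8 with edc-4, and 25.8, 22.3, 44.1 and 25.1 with both alleles, and it had the same high libraries. In the double mutant the log2 fold changes were 0.62 ± 0.36 for ceh-76, 0.43 ± 0.24 for ceh-40 and 0.44 ± 0.29 for ceh-49 (SE, edgeR adjusted p = 0.481, 0.462 and 0.507). With the index as a covariate they were 0.02, 0.03 and -0.04, and without the libraries numbered 4 they were 0.28, 0.06 and 0.00. ceh-83, ceh-92 and ceh-79 completed the high side of single mutants, at 0.22 to 0.44 in log2 units, and all of them overlapped WT.

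On the low side stood ceh-57 in every mutant. Its level was 2.54, 2.39, 4.30 and 2.99 CPM in WT, 2.15, 1.65, 1.84 and 2.72 with edc-3, 2.42, 2.10, 1.15 and 2.35 with edc-4, and 2.97, 2.62, 1.58 and 2.29 with both alleles. WT replicate 4 was the highest library and edc-4 replicate 4 the lowest, and all groups overlapped. The log2 fold change was -0.54 ± 0.26 for edc-3, -0.60 ± 0.26 for edc-4 and -0.37 ± 0.26 for the double mutant (SE, edgeR adjusted p = 1.0, 0.831 and 0.533). Without the libraries numbered 4 the values were -0.27, -0.19 and -0.01 in the same order. The Rx-type gene ceh-8 was at 8.39 ± 1.29 CPM in WT and 6.54 ± 0.943 in edc-4, a log2 fold change of -0.36 ± 0.15. ceh-22, the NK-2 gene of pharyngeal muscle, was at 20.6 ± 4.77 CPM in WT and 16.1 ± 2.47 in edc-4, a log2 fold change of -0.36 ± 0.16. Both genes had an edgeR adjusted p of 0.831 in edc-4. Without the libraries numbered 4 the values were -0.22 for ceh-8 and -0.13 for ceh-22, and ceh-22 was at -0.22 without WT replicate 4 alone. The remaining low members, ceh-17, ceh-18, ceh-19, ceh-48 and ceh-53, had log2 fold changes between -0.47 and -0.19 in the mutants in which they were among the lowest.

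The double mutant was also compared with each single mutant, to ask what the second allele added. No member passed the adjusted threshold in either comparison (edgeR), against 0.0355% of all genes relative to edc-3 and 0.0296% relative to edc-4. DESeq2 called 0 in both, with its share over all genes not given here. Libraries of the double mutant lay wholly above those of edc-3 for 3 members, ceh-10, ceh-27 and ceh-32 (4.62%, against 2.52% of all genes), and wholly below for 0 (against 1.87%). Relative to edc-4 they lay above for 2, ceh-10 and ceh-20 (3.08%, against 1.27%), and below for 0 (against 0.835%). At an unadjusted p under 0.05 there was 1 member relative to edc-3, against 5.01% of all genes, and 0 relative to edc-4, against 2.81%. That member was ceh-27, an NK-2 gene, with 41.1, 39.7, 38.6 and 47.3 CPM in WT, 38.6, 40.5, 42.3 and 37.7 with edc-3, 41.7, 43.7, 46.1 and 44.4 with edc-4, and 45.4, 49.9, 54.0 and 47.1 with both alleles. All double mutant libraries lay above all edc-3 libraries and overlapped those of WT and edc-4. Its log2 fold change relative to edc-3 was 0.30 ± 0.10 (SE, 95% interval 0.10 to 0.50, unadjusted p = 0.00518, edgeR adjusted p = 0.900). ceh-10, a Chx10-type gene of interneurons, was the member for which the double mutant stood above both single mutants. The share of all genes that did so was not computed, and nothing particular to ceh-10 is read from it. It gave 8.52, 8.86, 10.8 and 11.6 CPM in WT, 8.82, 9.50, 8.82 and 8.95 with edc-3, 8.84, 9.48, 8.93 and 8.75 with edc-4, and 10.4, 10.4, 10.3 and 10.9 with both alleles. WT covered the whole range of the mutants, and the log2 fold change was 0.22 ± 0.12 relative to edc-3 and 0.23 ± 0.12 relative to edc-4 (edgeR adjusted p = 0.900 and 1.0).

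The interaction of the alleles, which asks whether the double mutant departs from the sum of the single effects, passed the threshold for 0 members by edgeR and 0 by DESeq2. Of all genes 0.0355% passed by edgeR, and the share by DESeq2 is not given here. At an unadjusted p under 0.05 there were 2 members, ceh-8 and ceh-10, against 1.62% of all genes. The interaction term of ceh-8 was 0.48 ± 0.21 in log2 units (SE, unadjusted p = 0.031, edgeR adjusted p = 1.0).

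Separation of the libraries was counted as well. No member had all its edc-3 or all its edc-4 libraries above or below all WT libraries, against 0.936% above and 0.977% below among all genes in edc-3, and 1.05% and 1.25% in edc-4. In the double mutant 2 members, ceh-38 and ceh-51, lay wholly above WT (3.08% against 3.48% of all genes) and 1, the POU gene ceh-18, wholly below (1.54% against 3.95%). For ceh-18 the gap was very narrow, from 11.83 CPM in double mutant replicate 3 to 11.87 in WT replicate 4. The ONECUT gene ceh-38 gave 173, 172, 130.2 and 167 CPM in WT and 187, 181, 207 and 202 in the double mutant, a log2 fold change of 0.28 ± 0.11 (SE, 95% interval 0.04 to 0.51, edgeR adjusted p = 0.407). These shares were no higher than the background, and nothing about the members is read from them.

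**Figure D3:**
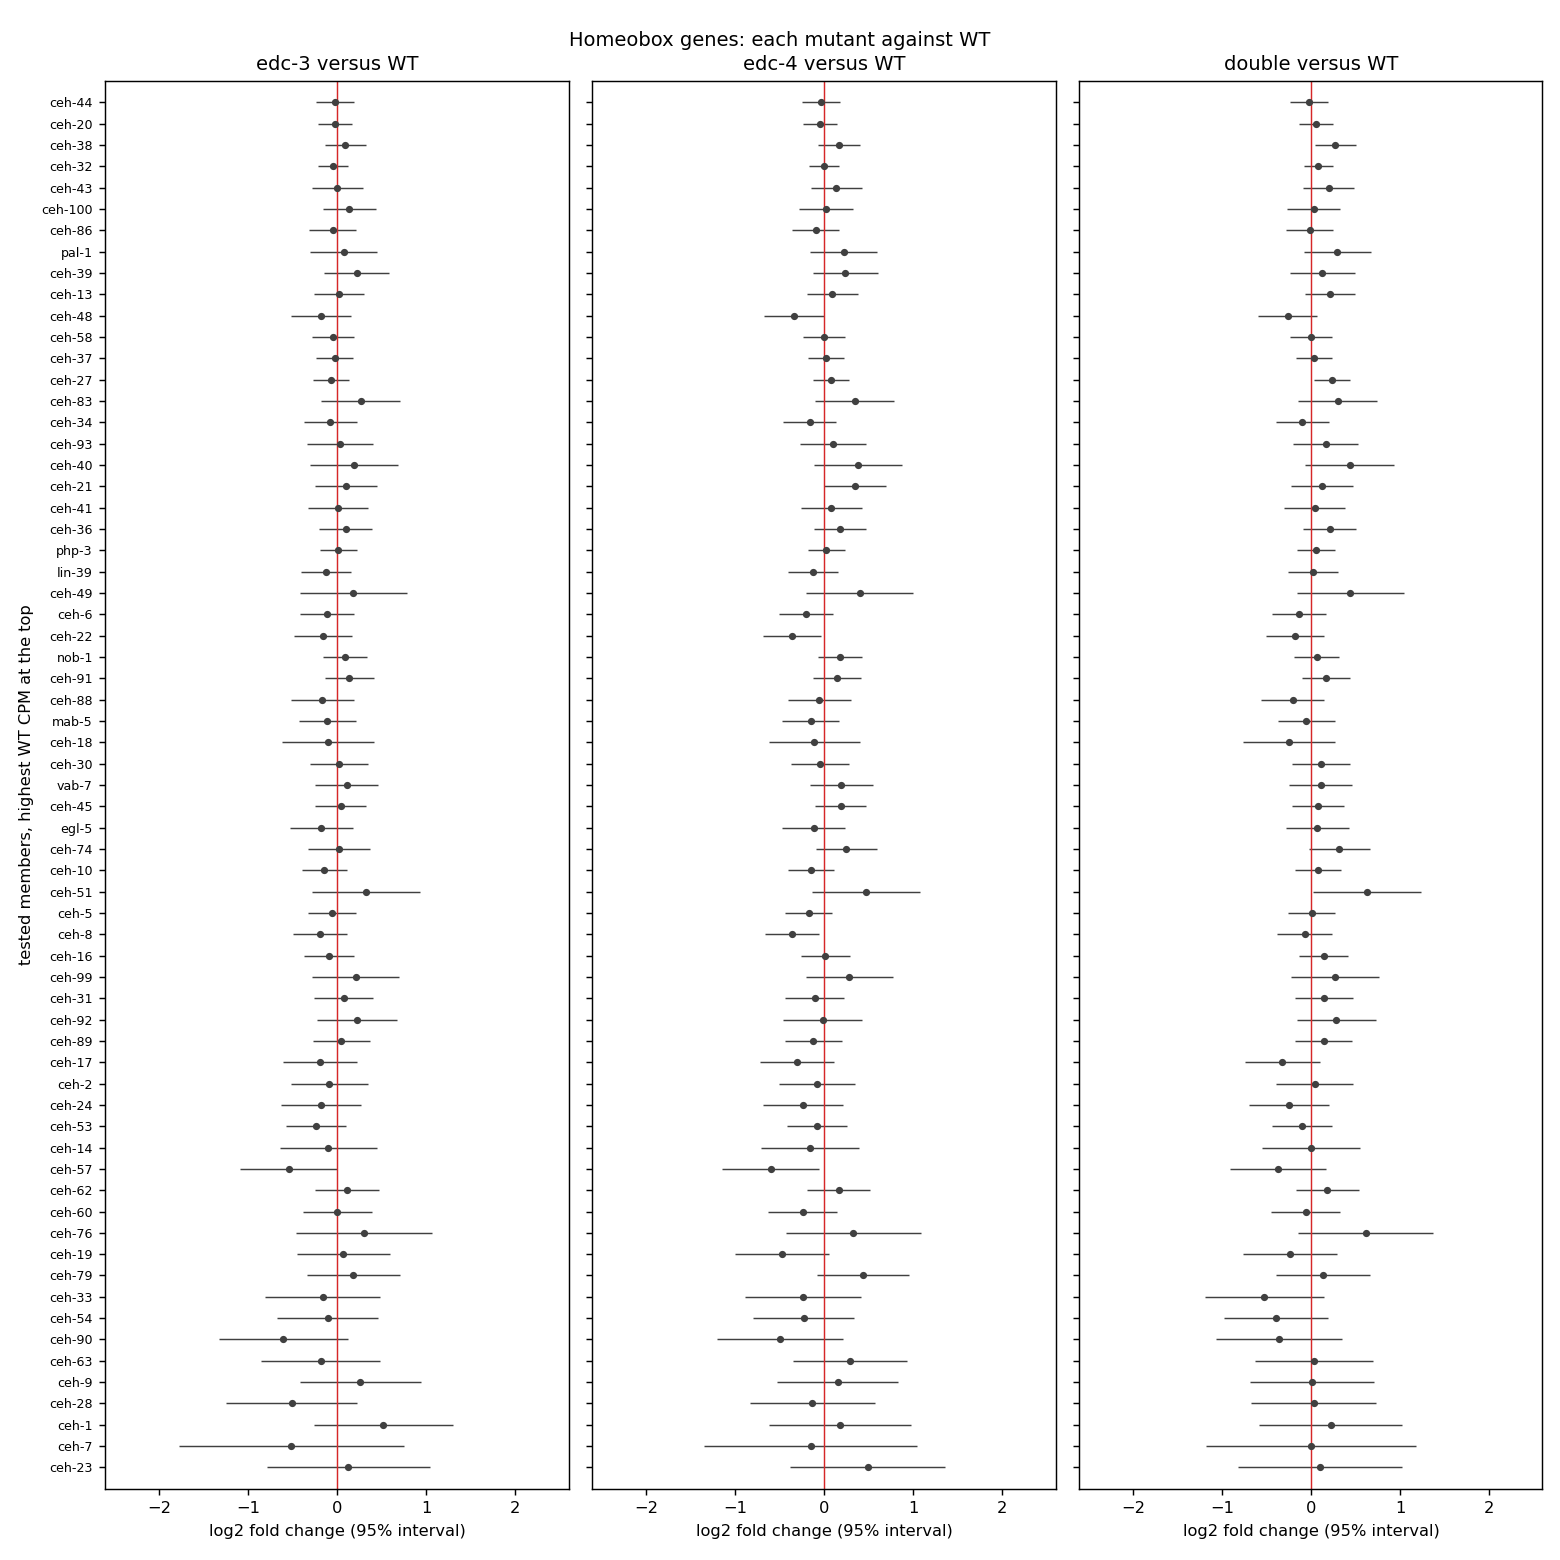
Log2 fold change of each of the 65 tested homeobox genes in the 3 mutants against WT, with the 95% interval from edgeR, ordered from the highest WT CPM at the top. Points scatter on both sides of 0, the intervals widen toward the low-count genes at the bottom, and no gene passes the adjusted threshold in any panel.

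The members were then placed along the embryo age index. In a fit with a mean for each genotype and a slope on the index, 41 of 65 members (63.1%) passed an adjusted p of 0.05 by edgeR, against 56.3% of all genes. Of these, 24 were higher in libraries of higher index (36.9%, against 29.1%) and 17 were lower (26.2%, against 27.2%). The shares lie near the background, and nothing particular to homeobox genes is read from the counts. The index was made from other genes of the same libraries. Replicate 4 of the genotypes carried much of its range: without those 4 libraries 9 members passed, 2 higher and 7 lower, against 15.7% of all genes. The 9 were ceh-18 and ceh-34 among the higher, and pal-1, ceh-40, ceh-41, ceh-49, ceh-76, ceh-83 and ceh-93 among the lower.

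Among the genes lower at a higher index, ceh-76 had a slope of -0.50 ± 0.07 log2 units per SD of the index (SE, edgeR adjusted p = 1.53e-05). ceh-49 followed with -0.44 ± 0.03 (2.21e-08), then ceh-51 with -0.42 ± 0.04 (2.06e-07) and ceh-40 with -0.35 ± 0.04 (2.89e-07). In all 4 genes the highest libraries were replicate 4 of edc-4 and of the double mutant, whose index values were the lowest of the 16. pal-1 had a slope of -0.27 ± 0.03 (edgeR adjusted p = 1.31e-07), and -0.23 without the libraries numbered 4. Further members of negative slope were ceh-99 at -0.31, ceh-83 at -0.30, ceh-93 at -0.25 and ceh-41 at -0.22. ceh-39, an X-linked ONECUT gene that acts in counting X chromosomes for sex determination, had -0.19 ± 0.05, and its X-linked neighbour ceh-21 had -0.08 ± 0.06, which did not pass. ceh-43 and the Otx-type gene ceh-36 had slopes of -0.17 and -0.18. Of the 17 genes, 15 had their highest library in replicate 4 of edc-4 or of the double mutant, the exceptions being ceh-39 and ceh-86, and 8 had their lowest library in WT replicate 4. Those libraries lie at the ends of the index, and the genes were chosen by their slope on it. Such counts are therefore largely fixed by the choice, and the share over all called genes was not computed.

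ceh-43 shows the pattern at a high level. It gave 155, 153, 155 and 157 CPM in WT, 141, 151, 176 and 154 with edc-3, 134, 155, 217 and 174 with edc-4, and 163, 156, 223 and 170.4 with both alleles. WT varied by a coefficient of variation of 0.989%, the smallest among the members of at least 1 CPM, although the WT index ran from -0.42 to 1.52. The highest libraries were replicate 4 of the double mutant and of edc-4, which had the lowest index, and the lowest were replicate 2 of edc-4 and of edc-3, with an index of 1.26 and 0.47.

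Among the genes higher at a higher index, ceh-14, which acts in the thermosensory AFD neurons, had a slope of 0.36 ± 0.06 (SE, edgeR adjusted p = 5.61e-05). Its values were 3.74, 3.74, 4.93 and 3.15 CPM in WT, 3.77, 3.34, 2.69 and 4.72 with edc-3, 4.42, 4.29, 1.90 and 3.31 with edc-4, and 3.94, 4.00, 2.46 and 5.16 with both alleles. The lowest libraries were replicate 4 of edc-4, of the double mutant and of edc-3. ceh-34, a sine oculis-class gene of the pharyngeal nervous system, had a slope of 0.19 ± 0.03 (edgeR adjusted p = 1.30e-05). It ran from 26.8 CPM in edc-4 replicate 4 to 47.1 in WT replicate 4, and its neighbour ceh-33 had a slope of 0.34 ± 0.10 at 0.304 to 1.23 CPM. Without double mutant replicate 4 the ceh-33 slope was 0.27 and did not pass (edgeR adjusted p = 0.053).

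Other steep positive slopes were 0.33 for ceh-57, 0.30 for the NK-2 gene ceh-24, 0.26 for ceh-19 of the pharyngeal MC neurons and 0.23 for ceh-2, the worm ems gene. The low-count gene ceh-1 had 0.34 ± 0.13 (edgeR adjusted p = 0.0357) and did not pass when WT replicate 3, WT replicate 4, edc-4 replicate 2, double mutant replicate 3 or double mutant replicate 4 was left out, with slopes of 0.22 to 0.37. It also missed the threshold by DESeq2 (0.33, adjusted p = 0.0673), without the filter on low counts (0.35), with the index from the muscle list alone (0.29), without a genotype term (0.24) and without the 4 libraries numbered 4 (0.32). The adjacent Bar-type genes ceh-30 and ceh-31 both had a slope of 0.17. Of the 24 members that were higher, 20 had their lowest library in replicate 4 of edc-4 or of the double mutant and 13 had their highest in WT replicate 4. These counts too are largely fixed by the choice of genes along the index.

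ceh-18, which acts in the gonadal sheath and in oocyte maturation, had a slope of 0.31 ± 0.06 (SE, edgeR adjusted p = 0.000293). Its values were 12.6, 12.05, 11.9 and 12.6 CPM in WT, 13.7, 8.39, 8.08 and 15.4 with edc-3, 17.7, 10.5, 7.61 and 9.66 with edc-4, and 10.9, 11.8, 7.24 and 11.2 with both alleles. WT was nearly constant at a coefficient of variation of 3.11%, and that of edc-4 was 38.8%. The vitellogenin gene vit-1, the single one that passed the filter, had a slope of 0.43 on the index. It stood at 1.55 CPM in WT, whereas vit-2 to vit-6 had WT means of 0.0219 to 0.130 CPM. The slope of vit-1 alone is therefore no measure of adult tissue, and the part of adult tissue in the ceh-18 level was not tested.

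Along the index the Hox genes differed in sign. egl-5 had a slope of 0.19 ± 0.04 (SE, edgeR adjusted p = 0.000835) and lin-39 one of 0.14 ± 0.03 (0.00111). ceh-13 had -0.18 ± 0.02 (8.58e-06) and nob-1 had -0.10 ± 0.03 (0.0154). mab-5 passed narrowly at 0.12 ± 0.05 (0.0344), and php-3 did not pass at -0.05 ± 0.03 (0.135). The neighbours lin-39 and ceh-13 thus had slopes of opposite sign, and their ratio per kb was lowest in edc-4 replicate 4 at 0.136 and in double mutant replicate 4 at 0.150, beside 0.214 to 0.272 in WT. Without edc-4 replicate 4 the nob-1 slope was -0.10 and did not pass (edgeR adjusted p = 0.0564), nor did it without double mutant replicate 4 (-0.09, adjusted p = 0.0658) or without the filter on low counts (-0.09, adjusted p = 0.0614). The mab-5 call was lost when any of WT replicates 3, 4 or 5, edc-3 replicates 4 or 5, edc-4 replicate 4 or double mutant replicate 3 was left out, with slopes of 0.09 to 0.12. It was also lost by DESeq2 (0.10, adjusted p = 0.0642) and with the index from the muscle list alone (0.10, edgeR adjusted p = 0.0940). The php-3 slope passed by DESeq2 (-0.07, adjusted p = 0.0424) and by edgeR without WT replicate 5 (-0.07, adjusted p = 0.0425). All 5 Hox slopes that passed missed the threshold once the 4 libraries numbered 4 were left out. vab-7 had -0.14 ± 0.05 (edgeR adjusted p = 0.0211), which did not pass without edc-4 replicate 4 (-0.12) or without double mutant replicate 4 (-0.11), with library totals without TMM (-0.13), or without the 4 libraries numbered 4 (-0.07).

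**Figure D4:**
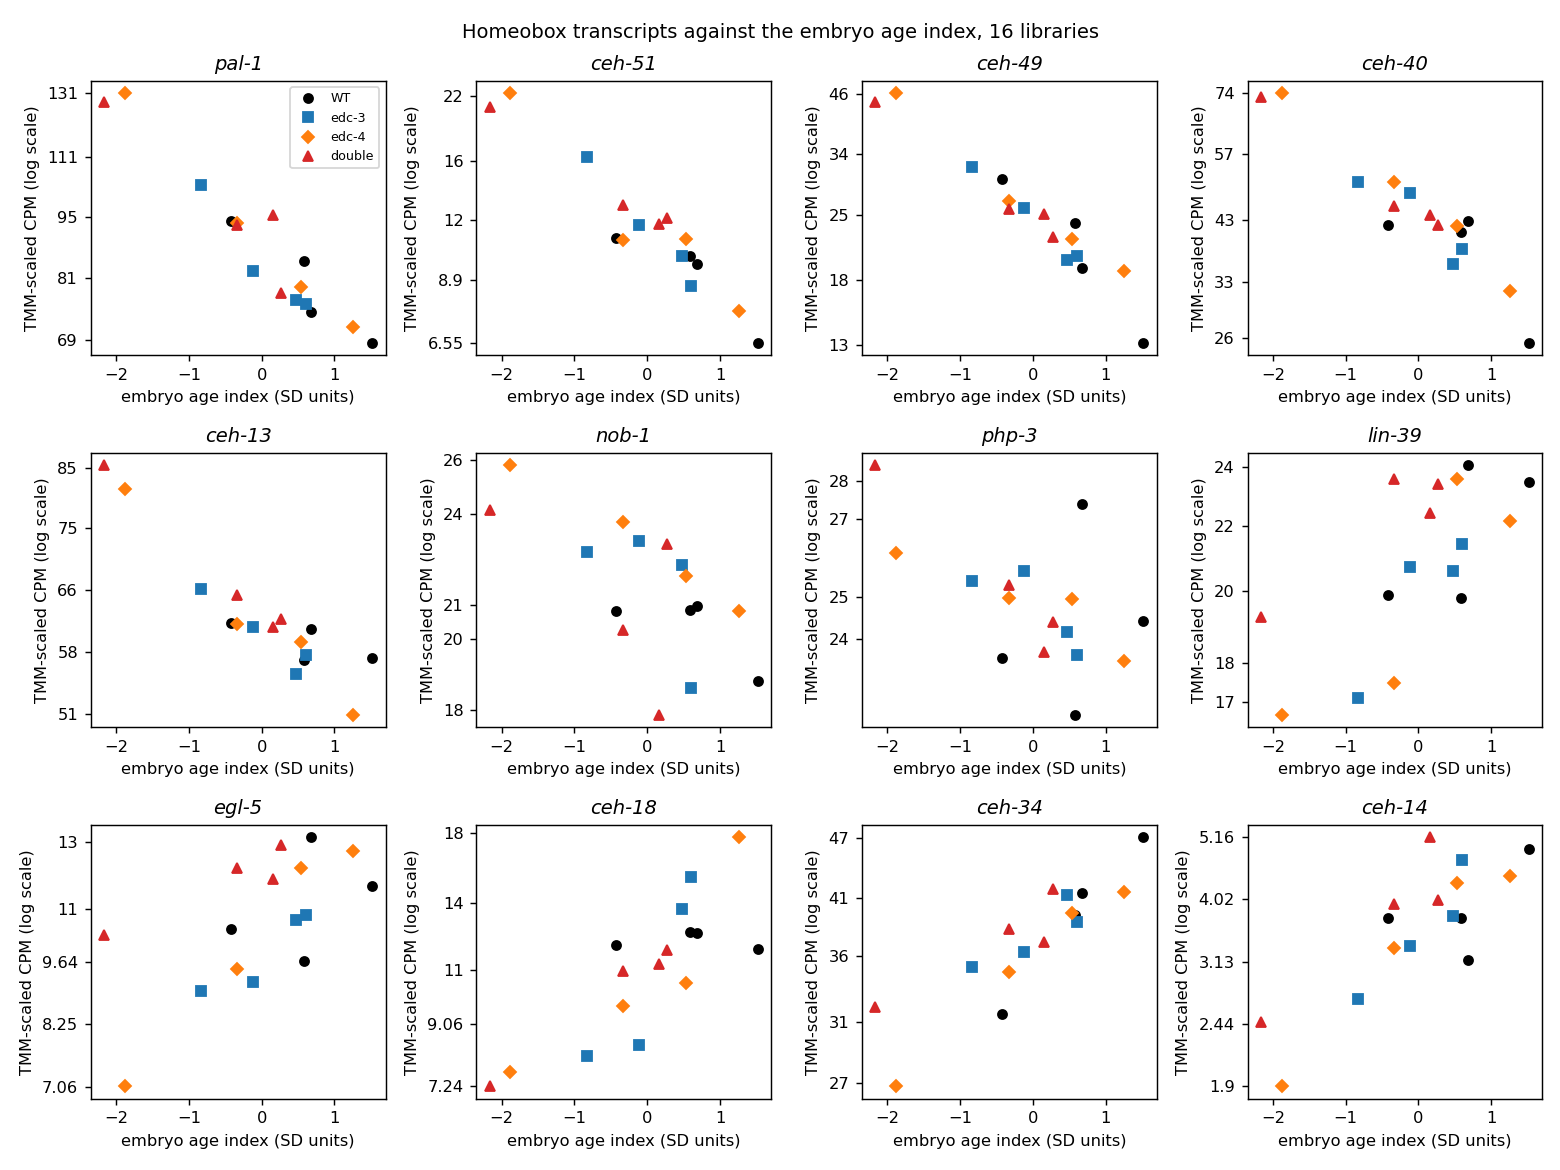
TMM-scaled CPM (log scale) of 12 homeobox genes against the embryo age index in SD units, with 1 point per library and a symbol per genotype. The libraries of lowest index, replicate 4 of edc-4 (-1.88) and of the double mutant (-2.16), stand highest for pal-1, ceh-51, ceh-49, ceh-40 and ceh-13 and lowest or near lowest for ceh-18, ceh-34 and ceh-14.

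By class, the 6 Hox genes had 3 higher and 2 lower slopes past the threshold, and pal-1 and vab-7 were both lower. Of all genes 29.1% were called higher and 27.2% lower. The classes are small, and nothing particular to a class is read from its counts. The 16 tested further genes of the ANTP class, which holds the NK, Bar and Distal-less types, had 7 higher and 2 lower. The POU pair was higher, ceh-6 with 0.16 and ceh-18 with 0.31, and of the 3 sine oculis-class genes 2 were higher while ceh-32 was level at 0.01 ± 0.02. Of the 8 paired-like genes 4 were higher and 1 lower. The 7 CUT genes had 4 lower and 1 higher, the latter being ceh-48 with 0.19. Of the 3 PBX-type genes ceh-40 alone passed. ceh-20, at 162 to 210.2 CPM, had a slope of -0.00 ± 0.03, and ceh-60, at 1.68 to 3.27 CPM, had 0.11 ± 0.07. The 17 tested members without a class given here had 4 higher and 5 lower.

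**Figure D5:**
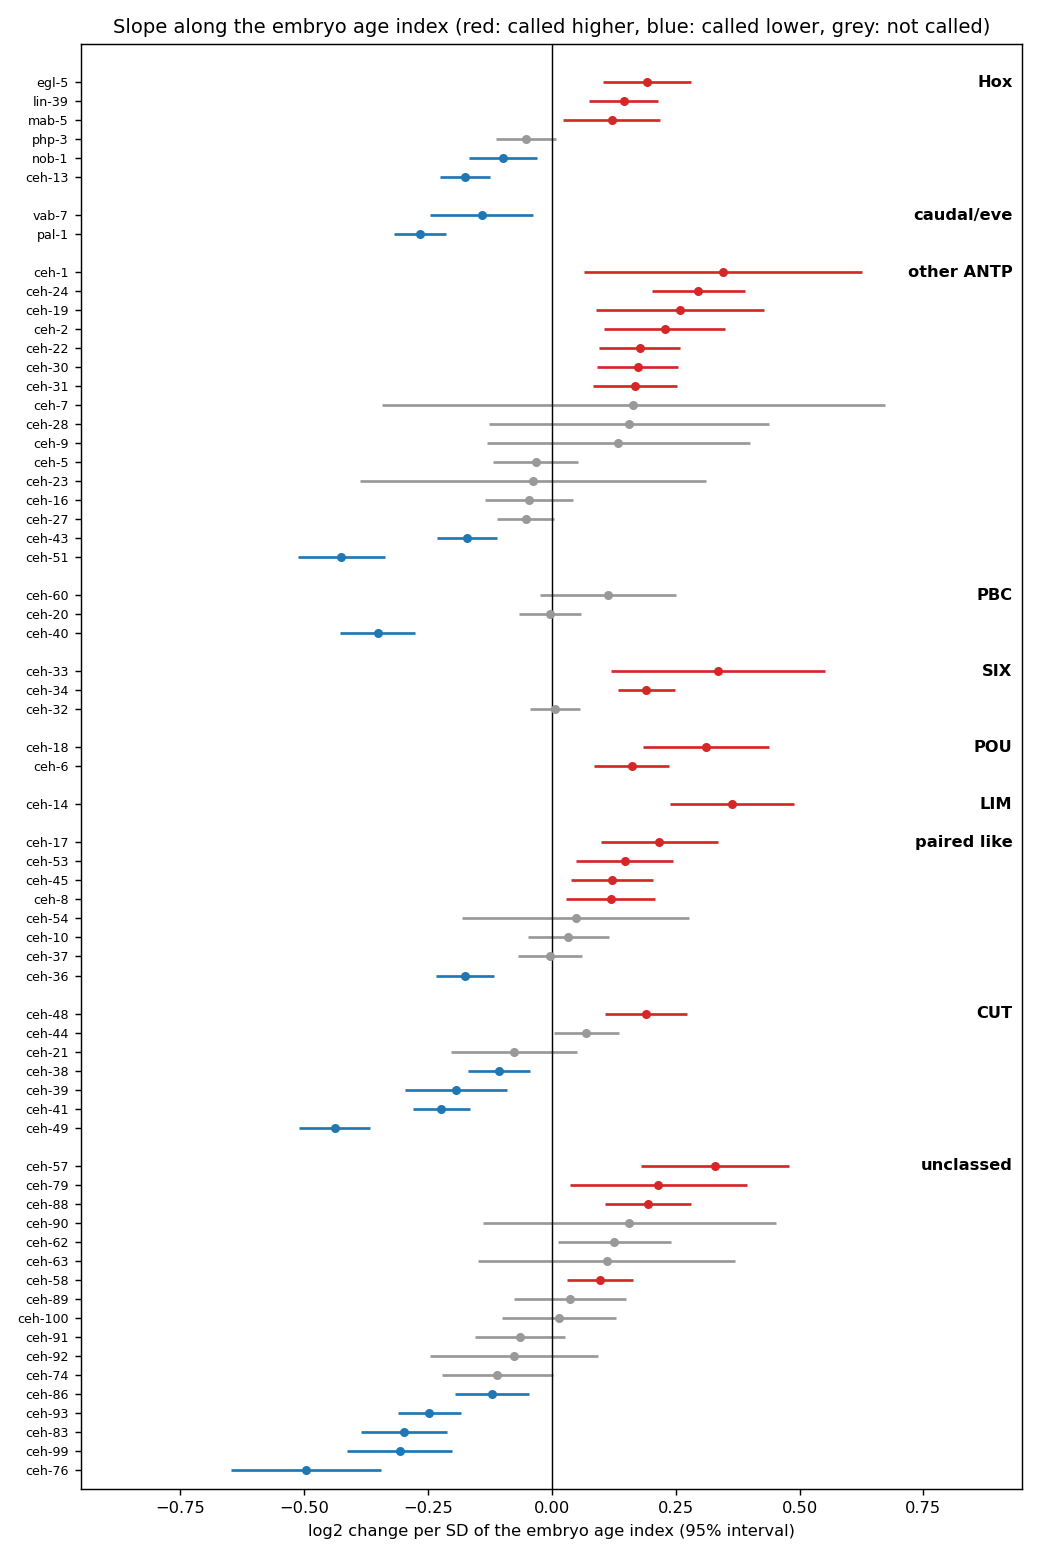
Slope of each of the 65 tested homeobox genes in log2 units per SD of the embryo age index, with the 95% interval, grouped by homeobox class. Red marks the 24 genes that passed the adjusted threshold as higher (36.9%, against 29.1% of all genes). Blue marks the 17 that passed as lower (26.2%, against 27.2%), and grey the others. Genes of either sign occur in the Hox, other ANTP, paired-like, CUT and unclassed groups.

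Genes that act with the members were set beside them. None of the genes in the lists of Hox cofactors, regulators of pal-1 translation, genes downstream of pal-1, Polycomb-type repressors, trithorax-type activators, Wnt signalling or other homeobox genes passed the adjusted threshold in any mutant against WT (edgeR). Their log2 fold changes in the double mutant lay between -0.34 and 0.50. Along the index 29.1% of all genes were called higher and 27.2% lower, and the counts of the lists are given beside that background with nothing particular to a list read from them. Of 8 regulators of pal-1 translation 1 was higher and 4 were lower. par-1, a polarity kinase, was the higher one at 0.21 (edgeR adjusted p = 7.25e-06), and the maternal RNA-binding genes pos-1 and spn-4 had the steepest falls at -0.33 (0.00182) and -0.30 (0.00418). Of 12 genes downstream of pal-1, 1 was higher, elt-3, a GATA factor of the epidermis, at 0.20, and 7 were lower, led by the T-box gene tbx-9 at -0.30 and the bHLH gene hnd-1 at -0.29. Among these, nob-1 and vab-7 are themselves members.

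Of 8 Polycomb-type repressors of Hox genes 1 was higher, sor-1 at 0.08, and 5 were lower, led by mes-6 at -0.24 and mig-32 at -0.17. Of 6 trithorax-type activators lin-59 was higher at 0.13, and wdr-5.1 and lin-49 were lower at -0.21 and -0.09. Wnt signals set the expression of lin-39, mab-5 and egl-5 in several lineages, and 7 of 25 Wnt pathway genes were higher and 9 lower. The β-catenin gene bar-1 (0.28) and the ligand gene egl-20 (0.25) had the steepest rises, and the Frizzled gene mom-5 (-0.26) and the Dishevelled gene dsh-2 (-0.25) the steepest falls. Of the 5 Hox cofactor genes only ceh-40 passed. Among the 31 homeobox genes with other names 20 were higher, led by zfh-2 at 0.42 and the motor neuron gene unc-4 at 0.40, and 3 were lower, namely hmbx-1 at -0.32, duxl-1 at -0.16 and pax-3. As a measure of cell content, 23 of 25 neuronal genes were higher and 1 was lower, and 0 of 29 maternal genes were higher while 10 were lower.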

How the data were processed

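Total RNA of 16 embryo samples was made into stranded, ribosome-depleted libraries, per the labels' protocols. The deposited table holds raw counts per gene, whole numbers of reads; the submitters' processing notes name Trimmomatic, STAR, HTSeq, edgeR, limma and the build WBcel235, without versions or a strand setting. Samples were grouped by the genotype in their labels; the series text names FD135 for the double mutant where the sample labels name FD146.

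In R 4.3.3 with edgeR 4.0.16, genes were filtered with filterByExpr (minimum count 10, minimum total 15), scaled by TMM and fitted over all 16 libraries by quasi-likelihood (glmQLFit, glmQLFTest) with a mean per genotype, and with a slope on the embryo age index in a second fit. P-values were adjusted by Benjamini-Hochberg over 16880 genes at 0.05. The common biological coefficient of variation was 0.193. The fit was also run on simulated counts of smaller spread, and that run gives no power or error rate for these data. Log2 CPM had a prior count of 2. Positions and exon lengths came from Ensembl annotation of WBcel235.

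The members, gene lists and tests were chosen with earlier results of these data known. Named were the Hox genes, pal-1 and vab-7; members called in a genotype comparison; the 4 highest and 4 lowest members per mutant with a mean of at least 1 CPM; the 10 of highest WT level per kb and the highest of each class; the 8 steepest called slopes of each sign; and up to 2 rises and 2 falls per gene list. Members named outside this rule, such as ceh-10, ceh-27 and those with separated libraries, were chosen after their values were seen. Alternatives were DESeq2 1.42.0, no TMM, no filter, fits on fewer groups, other index definitions, the index as covariate, a replicate block and leaving out libraries. No replicates matched within counting noise (chi-square/df of 11.1 to 201 for every pair).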

Additional observations from a re-analysis of the deposited data

Results flagged for a closer look

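In each genotype the highest or lowest of the 4 libraries was compared with the nearest other library for 40 named members. In 12 of 160 groups the gap exceeded Dixon's critical value at 95%. Many of the members were named for extreme values in these same libraries, and the genes share libraries. The chance rate of about 1 in 20 is therefore no baseline for this count. In WT replicate 4, ceh-19 stood at 2.64 CPM beside 1.34 to 1.53 in the other WT libraries, ceh-38 at 130.2 beside 167 to 173, ceh-40 at 25.5 beside 40.96 to 42.9, and nob-1 at 18.8 beside 20.8 to 20.98. That library had the highest embryo age index of all 16, at 1.52.

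In double mutant replicate 4, ceh-20 stood at 206 CPM beside 185 to 187, ceh-40 at 72.9 beside 42.2 to 45.7, ceh-49 at 44.1 beside 22.3 to 25.8, ceh-51 at 20.9 beside 11.8 to 12.9, and ceh-92 at 6.69 beside 9.05 to 9.22. That library had the lowest index, at -2.16. In the main edgeR fit ceh-40, ceh-49 and ceh-51 passed the threshold along the index, whereas ceh-20 and ceh-92 did not.

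In edc-3 replicate 5, ceh-20 stood at 189.9 CPM beside 176 to 178, and mab-5 at 17.5 beside 13.1 to 13.7. In WT replicate 5, the ceh-44 entry stood at 247 CPM beside 211 to 215. The index of these libraries was 0.61 and 0.68. The part of the stage mix in these values was not tested.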

How the results depend on the processing

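The count of 0 members past the threshold held in all 6 genotype comparisons under every alternative that was run, including DESeq2, no TMM, no filter, the index as covariate and each library left out. Shares of all genes were also small in the main fit, at 0.207% for the double mutant against WT. Those of the alternatives are not given here, and nothing particular to the members is read from the count of 0. Along the embryo age index the count of 41 members was 9 without the 4 libraries numbered 4, and 34 to 42 when single libraries were left out; the fit without those 4 had fewer samples and a narrower range of the index. The replicate numbers were not used as pairs in the main fit. Of 24 same-numbered pairs, 11 had deviations correlated above 0.1 (range -0.493 to 0.656), and 7 of 16 libraries correlated best with their own number. Pairs of different number correlated as well, such as WT replicate 4 with edc-3 replicate 5 at 0.539. Their share above 0.1 is not given here, so these counts do not show what the numbers mark. Among libraries numbered 4, edc-3 and edc-4 correlated at 0.521, edc-3 and the double mutant at 0.467, and edc-4 and the double mutant at 0.656. WT replicate 4 correlated with replicate 4 of edc-3, edc-4 and the double mutant at -0.354, -0.493 and -0.331. With a replicate block 0 members passed in the genotype comparisons and 41 along the index, of which 37 were shared: ceh-45, ceh-58, ceh-79 and vab-7 lost the call and ceh-21, ceh-74, ceh-91 and ceh-92 gained it. No called value of a named member changed sign. Over all alternatives along the index, calls were lost 81 times among the 41 members and gained 24 times among the others. Among the members chosen for naming, 12 values without a call moved by more than the spread between replicates, as did 5 medians over the members. Depth limits the 9 tested members under 1 CPM in WT, which were all among the 12 with the widest intervals of the 65 in each mutant against WT.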

Other observations

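The coefficient of variation over the 4 libraries of a genotype, among members with a WT mean of at least 1 CPM, had a median of 15.2% for WT, 10.8% for edc-3, 15.9% for edc-4 and 13.1% for the double mutant. Its lowest values were 0.989% for ceh-43 in WT, 2.26% for ceh-32 in edc-3, 2.35% for ceh-20 in edc-4 and 2.74% for ceh-10 in the double mutant. The highest were 34.1% for ceh-19 in WT, 32.5% for ceh-18 in edc-3, and 62.4% and 36.8% for ceh-76 with edc-4 and with both alleles.

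In the X-linked ONECUT cluster, ceh-41 and ceh-21 lie 0.1 kb apart and ceh-21 and ceh-39 lie 1.14 kb apart. The ceh-39 level per kb was 2.21 to 3.48 times that of ceh-21 in the 16 libraries, and the ceh-41 level was 0.833 to 1.62 times that of ceh-21. In edc-4 the unadjusted p of ceh-21 was 0.0498, with a log2 fold change of 0.35 ± 0.17 and an edgeR adjusted p of 0.831.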
